A study of Mus musculus with 2 samples.

Results

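The genes described here encode receptors of the ErbB family and the growth factors of the epidermal growth factor (EGF) family that bind them. They are the 10 rows of the deposited count table, out of 17260, whose symbol is Egfr, Erbb2, Erbb3, Areg, Ereg, Hbegf, Btc, Tgfa, Nrg1 or Epgn. Their gene identifiers in the table are, in that order, 13649, 13866, 13867, 11839, 13874, 15200, 12223, 21802, 211323 and 71920. Rows were picked by symbol, and the set of symbols was chosen with earlier results of these data known. RNA was sequenced from mouse embryonic fibroblasts (MEFs), connective tissue cells cultured from embryos, with 1 wild-type (WT) library and 1 library labelled Ahi1-/-. Both carried the C57BL/6 strain label, both came from embryos at day 13.5, and both were grown in DMEM with 10% fetal bovine serum, itself a source of growth factors. The kind of Ahi1 allele, how many embryos were pooled, the passage and any serum starvation were not stated in the labels. Ahi1 encodes jouberin, which is needed for normal primary cilia.

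ErbB receptors are tyrosine kinases that pair when a ligand binds and then signal through Ras and ERK, through PI3-kinase and through STAT proteins. ERBB2 has no known ligand of its own and acts as a partner, and the kinase of ERBB3 is weak, so that it signals mainly as a partner as well. The ligands are made as membrane-bound precursors and are released by ADAM proteases. EGFR binds amphiregulin, epiregulin, heparin-binding EGF-like growth factor, betacellulin, TGF-alpha and epigen, whereas neuregulins bind ERBB3 and ERBB4. Fibroblasts are a classical cell type for EGF responses, which include division and migration.

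The libraries held 19067504 (WT) and 20820756 (labelled Ahi1-/-) expected counts. Ahi1 had 410 counts in WT and 370 in the other library (log2 ratio -0.16, 95% counting interval -0.37 to 0.05), so the counts of the targeted gene did not check the label. Count columns are headed CON and EXP, which were read as control (WT) and experimental, and each direction rests on that reading. With 1 library per genotype there was no replicate and no test. Intervals cover counting error only, and differences are between these libraries. Fibroblast markers summed to 7672 (WT) and 19502.5 (labelled Ahi1-/-) TPM (a level per transcript length, scaled to the same total in each library). Of these 9 markers, 7 reached 2-fold higher in the library labelled Ahi1-/-. By the same rule, 16.0% of all genes with at least 50 counts in 1 library or both were higher and 10.3% lower. Single levels differed widely, from Lum (3.74 and 177 TPM) to Vim (4546 and 4710 TPM), with Thy1 at 16.3 and 1338 TPM. Cartilage markers summed to 937 and 53.7 TPM, with 4 of 5 lower, and red cell markers to 73.9 and 1.57 TPM, with 4 of 6 lower and Hba-a2 at 0 in the library labelled Ahi1-/-. Leukocyte markers summed to 25.3 and 18.3 TPM, with Cd14 lower (199 and 85 counts) and Adgre1 (4 and 39 counts) and Itgam (12 and 39 counts) in the other direction under the minimum of 50 counts. Endothelial markers summed to 1.91 and 1.47 TPM, with none of 7 reaching 50 counts. Their directions were mixed: Tie1 had 20 and 0 counts, Cdh5 9 and 1, Pecam1 7 and 2 and Cldn5 2 and 1. Kdr had 20 and 20 counts, Tek 8 and 9 and Emcn 1 and 8. Neuronal markers summed to 27.3 and 97.8 TPM, of which Tubb3 made up 27.1 and 85.3 TPM. Of these 7 markers, 2 were higher (Tubb3 and Stmn2). Few counts were held by Elavl4 (0 and 20), Rbfox3 (0 and 1), Elavl3 (1 and 1), Snap25 (1 and 3) and Syt1 (2 and 5). Muscle markers summed to 3.95 and 46.3 TPM, of which Des made up 2.97 and 44.95 TPM. Des alone of 4 was higher, and Myh3 had 0 and 3 counts, Actc1 1 and 6 and Tnnt3 8 and 7. The part of these cell types in the results was not tested, and in bulk RNA fewer cells of a type and less RNA per cell cannot be told apart.

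Promoter sequences are shown for Egfr, the member with the largest ratio, for Erbb2, the receptor gene whose level was nearly even, and for Areg, the member with the lowest ratio. They are RefSeq promoters of build GRCm38.p6, from 250 bases before to 50 bases after the annotated start, and 6 of the 10 members had an entry. Capitals mark matches on either strand to the cAMP response element TGACGTCA, the AP-1 site TGANTCA, the GC box GGGCGG or the TATA box TATAAA. The Egfr promoter lies at chr11:16751953-16752252 on the + strand, that of Erbb2 at chr11:98412234-98412533 on the + strand and that of Areg at chr5:91139349-91139648 on the + strand.
Egfr: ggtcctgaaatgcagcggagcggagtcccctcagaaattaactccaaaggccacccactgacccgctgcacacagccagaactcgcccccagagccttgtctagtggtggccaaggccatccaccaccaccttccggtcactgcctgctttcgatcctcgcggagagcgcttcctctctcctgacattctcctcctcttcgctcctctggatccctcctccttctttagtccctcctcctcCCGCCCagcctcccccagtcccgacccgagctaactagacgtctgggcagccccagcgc
Erbb2: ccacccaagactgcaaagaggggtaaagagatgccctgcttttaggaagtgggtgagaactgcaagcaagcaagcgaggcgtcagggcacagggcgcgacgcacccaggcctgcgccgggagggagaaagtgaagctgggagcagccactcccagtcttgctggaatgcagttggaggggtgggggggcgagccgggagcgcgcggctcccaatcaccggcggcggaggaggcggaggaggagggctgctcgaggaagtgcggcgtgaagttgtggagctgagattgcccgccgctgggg
Areg: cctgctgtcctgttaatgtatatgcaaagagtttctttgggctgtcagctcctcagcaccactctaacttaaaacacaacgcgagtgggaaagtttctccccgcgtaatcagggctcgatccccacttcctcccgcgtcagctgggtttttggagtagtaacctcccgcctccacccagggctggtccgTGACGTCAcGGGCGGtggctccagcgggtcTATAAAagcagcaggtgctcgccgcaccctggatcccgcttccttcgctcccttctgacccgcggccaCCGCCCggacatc

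The Areg window held 1 cAMP response element that began at position -61 from the start, 2 GC boxes and 1 TATA box that began at -31. The Egfr window held 1 GC box, at -9, and neither of the other kinds of match. The Erbb2 window held none of the 4 motifs. Over 32817 promoters of this length, 1.79% held the cAMP response element, 7.81% the AP-1 site, 35.6% the GC box and 13.6% the TATA box. None of the 4 motifs overlapped another in these 3 windows. A match describes letters only, and no binding was measured in these libraries.

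The 10 genes did not all differ in the same direction. A minimum of 50 counts in 1 library or both was reached by 7 genes. Of these, 4 (Egfr, Hbegf, Ereg and Nrg1) reached 2-fold higher in the library labelled Ahi1-/-. Another 2 were at least 2-fold lower (Areg and Erbb3), and Erbb2 lay within 2-fold. The same rule held for 16.0% (higher) and 10.3% (lower) of the 12075 genes of the table with that minimum, against 57.1% and 28.6% of these 7. The 4 higher genes met the minimum in both libraries. Areg (51 and 15 counts) and Erbb3 (60 and 24 counts) met it in WT alone, and 0 members were lower at a minimum of 200 counts. The other 3 genes, Btc, Tgfa and Epgn, had at most 20 counts in either library. All 10 had at least 10 counts over both libraries, and their median log2 ratio was 0.31, beside -0.01 over all genes with that minimum.

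**Figure D1:**
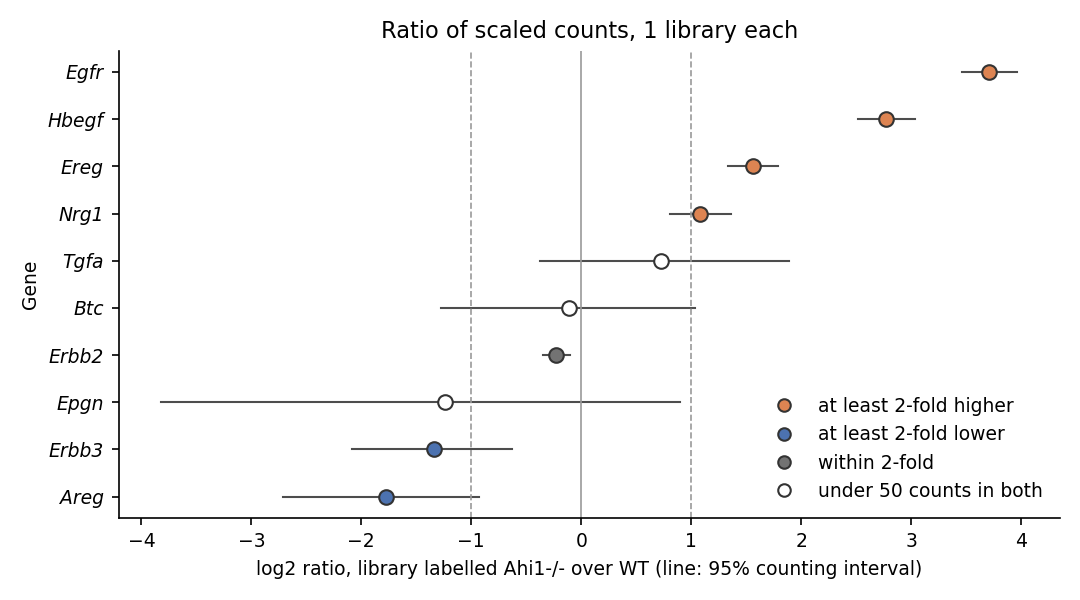
Log2 of the scaled count with the Ahi1-/- label divided by the scaled WT count for each of the 10 genes, with 95% counting intervals as lines and dashed lines at 2-fold. Egfr stood highest at 3.71 and Areg lowest at -1.78, and the open circles are the 3 genes with under 50 counts in both libraries.

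Among the receptors, Egfr was the gene that differed most. It had 143 counts (WT) and 1885 counts (labelled Ahi1-/-). Scaled to library size as CPM these are 7.21 and 94.2, which is 13.1-fold higher (log2 3.71, interval 3.46 to 3.96). Only 4.31% of the genes with the minimum count had a ratio at least as high. Erbb2, which encodes the partner receptor without a ligand, had 1176 and 1014 counts, or 59.3 and 50.7 CPM. Its ratio of 1.17-fold lower (log2 -0.23, interval -0.35 to -0.10) lay near that of the bulk of genes. Erbb3, which encodes the receptor with the weak kinase, had 60 and 24 counts, which is 2.52-fold lower (log2 -1.33, interval -2.08 to -0.63), and that interval includes differences smaller than 2-fold. Egfr and Erbb2 both lie on chromosome 11, whose 1158 measured genes had a median log2 ratio of 0.14. In the annotation Egfr overlaps the noncoding genes Egfros and Gm39584, and Erbb2 overlaps the end of Mien1. Whether strand was used in counting is unknown, so reads of such genes could not be separated here.

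On a scale per length, the leading receptor transcript differed between the libraries. In WT, Erbb2 stood at 25.4 TPM and Egfr at 2.58 TPM, so that the level of Egfr was 0.10 times that of Erbb2 (interval 0.085 to 0.12). In the library labelled Ahi1-/-, Egfr stood at 37.3 TPM and Erbb2 at 22.4 TPM, a ratio of 1.66 (interval 1.54 to 1.80). Erbb3 was the least abundant receptor transcript in both, at 1.08 and 0.44 TPM. Of the summed TPM of these 3 receptors, Egfr made up 8.89% (WT) and 62.0% (labelled Ahi1-/-), Erbb2 87.4% and 37.3%, and Erbb3 3.72% and 0.73%. The sum itself was 29.0 TPM in WT and 60.1 TPM in the other library, 2.07-fold higher.

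**Figure D2:**
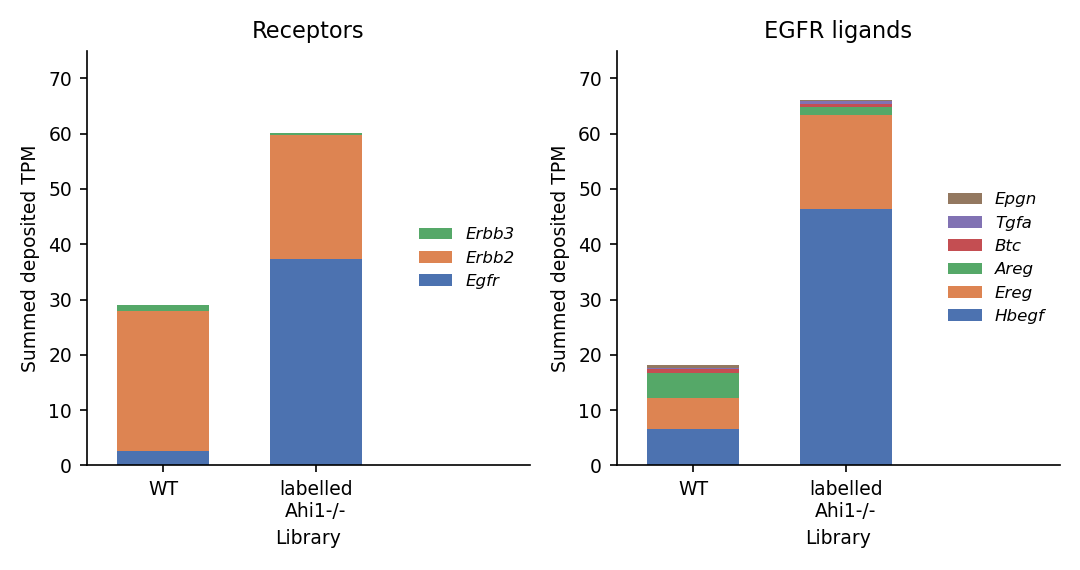
Summed deposited TPM of the 3 receptors (left) and of the 6 EGFR ligands (right) in each library, with 1 colour per gene. Receptor transcripts summed to 29.0 and 60.1 TPM and EGFR ligand transcripts to 18.1 and 66.0 TPM, and Egfr and Hbegf made up most of the bar of the library labelled Ahi1-/-.

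Of the 6 genes for ligands of EGFR, 2 were higher, 1 was lower and 3 were too low to place. Hbegf encodes heparin-binding EGF-like growth factor, a ligand that also binds heparan sulfate and ERBB4. Its counts were 143 (WT) and 987 (labelled Ahi1-/-), or 7.21 and 49.3 CPM, which is 6.84-fold higher (log2 2.77, interval 2.52 to 3.04). Ereg encodes epiregulin, a ligand of low affinity that binds several ErbB receptors. It had 213 and 635 counts, or 10.7 and 31.7 CPM, which is 2.95-fold higher (log2 1.56, interval 1.34 to 1.79). Areg encodes amphiregulin, a ligand of EGFR known from mammary gland and immune cells. It went the other way with 51 and 15 counts, or 2.57 and 0.75 CPM, 3.43-fold lower (log2 -1.78, interval -2.72 to -0.93). Its WT count was just above the minimum of 50, and its interval includes differences smaller than 2-fold. Of the genes with the minimum, 3.21% had a ratio at least as low. The intervals of Hbegf, Ereg and Areg did not overlap each other.

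Btc, Tgfa and Epgn were at the edge of detection in both libraries. Btc, which encodes betacellulin, had 15 and 14 counts (log2 ratio -0.11, interval -1.27 to 1.04). Tgfa, which encodes TGF-alpha, had 12 and 20 counts (log2 ratio 0.72, interval -0.38 to 1.89). Epgn, which encodes epigen, had 7 and 3 counts (log2 ratio -1.24, interval -3.82 to 0.90). Each of these 3 intervals includes 0, so a difference was not detectable at this depth, and none of the genes exceeded 0.58 TPM.

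Epgn, Ereg, Areg and Btc are consecutive protein-coding genes on chromosome 5 in the RefSeq annotation of GRCm38.p6. Within this run, the neighbours Ereg and Areg lay on opposite sides of 0, at log2 ratios of 1.56 and -1.78. The gene before the run, Mthfd2l, had 338 and 268 counts (log2 ratio -0.35, interval -0.58 to -0.11). The gene after it, Parm1, had 19 and 216 counts (log2 ratio 3.49, interval 2.82 to 4.25). Both were named for their position, after their values were seen. The 898 measured genes of chromosome 5 had a median log2 ratio of -0.14. Ereg overlaps the noncoding gene Gm19610 in the annotation.

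The mix of EGFR ligand transcripts differed between the libraries too. In WT, Hbegf (6.56 TPM), Ereg (5.56 TPM) and Areg (4.67 TPM) made up 36.2%, 30.7% and 25.8% of the summed TPM of the 6 genes. In the library labelled Ahi1-/- the levels were 46.4, 17.0 and 1.41 TPM, or 70.3%, 25.7% and 2.14% of the sum. The level of Areg was 0.84 times that of Ereg in WT (interval 0.61 to 1.14) and 0.083 times in the other library (interval 0.046 to 0.14). Hbegf stood at 1.18 times Ereg in WT (interval 0.95 to 1.47) and at 2.73 times in the library labelled Ahi1-/- (interval 2.47 to 3.02). Areg stood at 0.71 times Hbegf in WT (interval 0.51 to 0.99) and at 0.030 times in the other library (interval 0.017 to 0.050). The sum over the 6 genes was 18.1 TPM in WT and 66.0 TPM in the other library, 3.65-fold higher.

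Nrg1 encodes neuregulin 1, the ligand of ERBB3 and ERBB4. Its counts were 160 (WT) and 341 (labelled Ahi1-/-), or 8.07 and 17.0 CPM. That is 2.11-fold higher (log2 1.08, interval 0.80 to 1.36), close to the 2-fold line and on its near side at a log2 ratio of 0.96 when libraries were scaled by total counts. The gene lies on chromosome 8, whose 774 measured genes had a median log2 ratio of -0.36. With chromosome medians subtracted, the log2 ratio of Nrg1 was 1.43, above its counting interval. Nrg1 overlaps several predicted genes in the annotation, 1 of them protein-coding. Per length, Nrg1 stood at 3.75 times the level of Erbb3 in WT (interval 2.77 to 5.13) and at 18.6 times in the library labelled Ahi1-/- (interval 12.3 to 29.4).

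The order of all 10 genes per length can be read from the deposited TPM. In WT the order was Erbb2, Hbegf, Ereg, Areg, Nrg1, Egfr, Erbb3, Btc, Epgn and Tgfa. Neighbours from Hbegf to Nrg1 did not differ beyond counting error in WT, and neither did those from Btc to Tgfa. In the library labelled Ahi1-/- the order was Hbegf, Egfr, Erbb2, Ereg, Nrg1, Areg, Btc, Tgfa, Erbb3 and Epgn. There, each gene from Hbegf to Areg stood above the next beyond counting error, and the neighbours from Btc to Epgn did not. The median gene of the whole table stood at 10.1 TPM in WT and 11.0 TPM in the other library. Erbb2 alone was above that median in WT, whereas Hbegf, Egfr, Erbb2 and Ereg were in the library labelled Ahi1-/-.

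**Figure D3:**
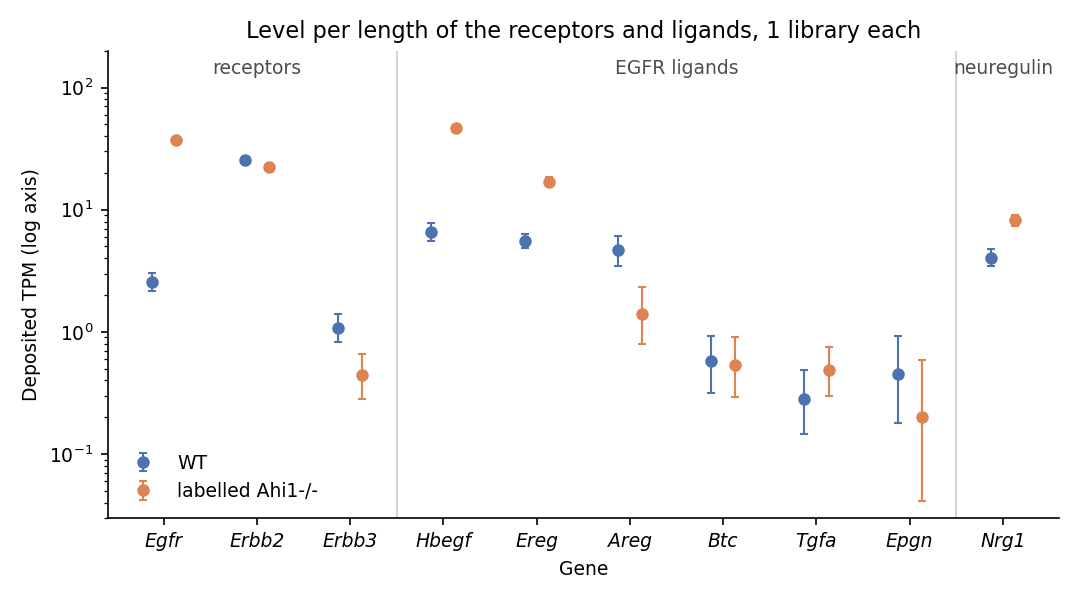
Deposited TPM of the 10 genes on a log axis in WT (blue) and the library labelled Ahi1-/- (orange), with error bars for the 95% Poisson interval of the count. Egfr stood at 2.58 and 37.3 TPM and Hbegf at 6.56 and 46.4 TPM, while Erbb2 stood at 25.4 and 22.4 TPM.

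The family has further genes, all with few counts. Egf, which encodes EGF itself, had 20 and 8 counts (log2 ratio -1.33, interval -2.73 to -0.09). Nrg4 had 5 and 19 counts (log2 ratio 1.91, interval 0.44 to 3.69), and Nrg2 had 9 and 6 (log2 ratio -0.60, interval -2.37 to 1.06). Nrg3 had 2 counts (WT) and 0 counts (labelled Ahi1-/-), and no ratio was formed. Erbb4, the receptor for neuregulins, was not analysed here.

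Epithelial cells are a usual source of ErbB ligands and of Erbb3, so their markers are given beside these genes. Of 10 epithelial markers, 6 had at least 50 counts in 1 library or both. Of these, 5 reached 2-fold higher with the Ahi1-/- label (83.3%, beside 16.0% of all genes). None was lower at that minimum, beside 10.3% of all genes. Epcam, Cdh1 (36 and 89 counts), Krt18 (11 and 50) and Cldn7 (29 and 60) met the minimum only in the library where they were higher. Krt8 (203 and 421 counts) met it in both. The share of 83.3% thus rests largely on genes that their higher count brought over the minimum. The 10 markers summed to 70.4 TPM in WT and 107 TPM in the other library, with Krt5 at 0 and 1 counts. The list did not run in 1 direction throughout. Epcam had 40 and 128 counts, Krt19 had 592 and 680 (log2 ratio 0.19), and Trp63 had 16 and 8 (log2 ratio -1.01, interval -2.45 to 0.30). Erbb3 is also known from Schwann cells and melanocytes. Of 7 markers of Schwann and neural crest cells, none was 2-fold apart with at least 50 counts, a minimum that only Mitf reached. Their sum was 15.1 and 11.4 TPM, of which Mitf (526 and 269 counts, log2 ratio -0.98, interval -1.20 to -0.77) made up 11.6 and 6.16 TPM. Sox10 (0 and 30 counts) and Foxd3 (0 and 8 counts) went the other way. Of the 5 with at least 10 counts over both libraries, 3 were above a log2 ratio of 0 and 2 below. What share these cells had in the levels of Erbb3 and the ligands was not tested.

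Proteases that shed the ligands differed only in part. Of 9 shedding genes, 8 had at least 50 counts in 1 library or both. Of these, 2 were at least 2-fold higher (25%, beside 16.0% of all genes with that minimum). None was lower, beside 10.3% of all genes, and the median log2 ratio of the 9 was 0.33. Adam19, a protease reported to cleave neuregulin, had 92 and 4883 counts, 52.6-fold higher (log2 5.72, interval 5.42 to 6.03). Adam12, a protease reported to cleave HB-EGF, had 536 and 5495 counts, 10.2-fold higher (log2 3.34, interval 3.22 to 3.48). The main sheddases lay within 2-fold. Adam17 had 2036 and 1622 counts (log2 ratio -0.34, interval -0.44 to -0.25), and Adam10 had 2481 and 3147 (log2 ratio 0.33, interval 0.25 to 0.41).

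Of 13 measured partners at the cell surface, 5 were higher (38.5%, beside 16.0% of all genes with at least 50 counts). Another 1 was lower (7.69%, beside 10.3% of all genes), or 2 with total counts. The median log2 ratio was 0.78. Cav1, which encodes the caveolar coat protein caveolin 1, had 3248 and 14978 counts (4.57-fold higher). Nrp1, a co-receptor for several growth factors, had 842 and 3095 counts (3.64-fold higher), and Cd44, a hyaluronan receptor that can present HB-EGF, had 4483 and 12054 (2.66-fold higher). Muc1, an epithelial mucin, had 120 and 36 counts (3.36-fold lower). Cd9, whose product binds the HB-EGF precursor, had 3569 and 3151 counts (log2 ratio -0.19, interval -0.26 to -0.12).

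Downstream, most of the adaptor, kinase and STAT genes lay within 2-fold. Of 34 measured effectors, 29 lay within 2-fold, with a median log2 ratio of 0.09. Another 2 were higher (5.88%, beside 16.0% of all genes) and 3 were lower (8.82%, beside 10.3% of all genes). At a 1.5-fold threshold, 5 effectors were higher and 6 lower. Stat3, a transcription factor activated by receptor kinases, had 2558 and 5361 counts (2.08-fold higher), and Vav3, an exchange factor for small GTPases, had 18 and 54 (2.97-fold higher). Stat3 was under 2-fold with total counts (log2 ratio 0.94) and with chromosome medians subtracted (log2 ratio 0.91), which left 1 effector higher. Pik3cb, a catalytic subunit of PI3-kinase, had 355 and 160 counts (2.24-fold lower). None of the 15 genes of receptor endocytosis was 2-fold apart, beside 16.0% (higher) and 10.3% (lower) of all genes. The endocytosis genes with the most counts were Rab7 (4830 and 7282 counts, log2 ratio 0.58) and Sh3kbp1 (3563 and 4790 counts, log2 ratio 0.41).

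Inhibitors of the receptors and of Ras-ERK, several of which are themselves induced by the pathway, differed in both directions, with 17 of 23 above a log2 ratio of 0 and 6 below. Of 23 measured inhibitors, 7 reached 2-fold higher with the Ahi1-/- label (30.4%, beside 16.0% of all genes with at least 50 counts). None was 2-fold lower, beside 10.3% of all genes, and the median log2 ratio was 0.35. The lowest ratios of the list were those of the phosphatase genes Ptpn2 (1243 and 713 counts, log2 ratio -0.81, interval -0.95 to -0.68) and Ptprj (429 and 252 counts, log2 ratio -0.78, interval -1.01 to -0.55), both within 2-fold. Sprouty genes encode feedback inhibitors of receptor kinase signalling. Spry4 had 38 and 397 counts (10.4-fold higher, log2 3.37, interval 2.89 to 3.89), Spry1 141 and 920 (6.47-fold higher) and Spry2 218 and 745 (3.39-fold higher). Errfi1, whose product MIG6 binds and inhibits the EGFR kinase, had 783 and 2926 counts (3.70-fold higher). The ubiquitin ligase genes Cbl (977 and 2221 counts, 2.25-fold higher) and Cblb (558 and 1153 counts, 2.05-fold higher) lay close to the 2-fold line. Cblb fell short of it with total counts (log2 ratio 0.92), and Cbl did so with chromosome medians subtracted (log2 ratio 0.97).

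Of 21 targets that respond to ERK, 10 were at least 2-fold higher (47.6%, beside 16.0% of all genes with at least 50 counts). None was 2-fold lower, beside 10.3% of all genes, and the median log2 ratio was 0.71. Of the 21 targets, 16 were above a log2 ratio of 0 and 5 below. With total counts, 9 targets were higher. Ccnd1, which encodes cyclin D1, had 159 and 3314 counts (20.7-fold higher, log2 4.37, interval 4.14 to 4.61). Ptgs2, the inducible cyclooxygenase, had 1186 and 7814 counts (6.53-fold higher). The phosphatase genes Dusp6 and Dusp4, whose products act back on ERK, had 102 and 598 counts (5.81-fold higher) and 83 and 446 counts (5.33-fold higher). The ETS factor genes Etv5 (159 and 582 counts, 3.63-fold higher) and Etv4 (142 and 480 counts, 3.35-fold higher) were also higher. Among the immediate early genes, Jun had 1299 and 2878 counts and was over 2-fold higher (log2 ratio 1.13, interval 1.04 to 1.23), whereas Fos (111 and 137 counts, log2 ratio 0.29, interval -0.08 to 0.67) and Egr1 (1751 and 1577 counts, log2 ratio -0.16, interval -0.26 to -0.06) lay within 2-fold. Each list is small and its genes respond to other receptors as well, and no protein or phosphorylation was measured.

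**Figure D4:**
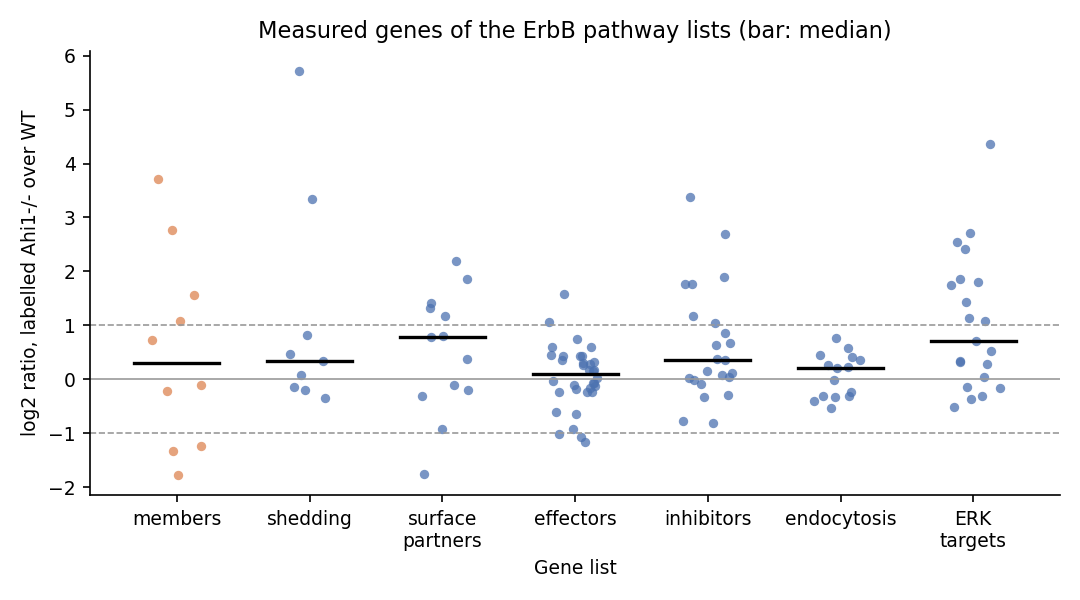
Log2 ratio of the measured genes of the 10 members (orange) and of 6 lists of the ErbB pathway (blue), 1 point per gene, with the median as a bar and dashed lines at 2-fold. Medians ran from 0.09 for the effectors to 0.78 for the surface partners, and all 15 endocytosis genes lay between the 2-fold lines.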

How the data were processed

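Per the file headers, the authors' main deposited table gives read counts, which are expected counts that need not be whole, and TPM for 17260 genes. Of the 10 members, 7 had whole counts in both libraries and 3 (Egfr, Btc and Nrg1) had fractions. A second deposited table gives FPKM for 3872 genes. RSEM 1.2.12, Bowtie2 2.2.5, HISAT2 2.0.4 and build mm8 appear in the submitters' processing notes, with no role given; annotation, strand and filters have no statement in the labels or headers.

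Counts were rounded and all genes were scaled with TMM in edgeR 4.0.16 (R 4.3.3). Ratios carry exact 95% Clopper-Pearson intervals, computed with scipy 1.17.1 and pandas 2.3.3 in Python 3.11.15. A count of 0 was set to a floor of 3, and no ratio was formed where both counts were at or under it. Genes were called higher or lower at 2-fold where either library held 50 counts or more, and list medians used at least 10 counts over both. Interval overlap is a description and not a test. TPM intervals scale the Poisson interval of the count, and ratios of TPM between genes scale the Clopper-Pearson interval. The calculation was checked on simulated data. Alternatives were DESeq2 1.42.0 size factors, total counts, upper-quartile scaling, TPM ratios, other minimums and other folds.

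The members and gene lists were chosen with earlier results of these data known. All 10 members and the rest of the family are named, with up to 4 genes per list at least 2-fold apart with the largest log2 ratio, or the 2 with most counts where none was; some effector genes are not reported here. Adam10, Adam17, Cd9, Cbl, Cblb, Etv4, Etv5, Fos, Egr1, Jun, Ptpn2, Ptprj, Mthfd2l, Parm1 and single marker genes were named after their values were seen. Promoters and chromosomes came from RefSeq on GRCm38.p6, a build other than the submitters' mm8, and 17210 of 17260 gene identifiers matched. Krt14, Dct, Myod1 and Myog of the marker lists were not analysed here.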

Additional observations from a re-analysis of the deposited data

How the results depend on the processing

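With 1 library per genotype, no left-out replicate could be tried. No paired analysis was possible because each genotype has a single library. Each of the 10 members kept its direction with DESeq2 size factors, total counts, upper-quartile scaling, TPM ratios and unrounded counts, and Btc alone changed sign when chromosome medians were subtracted. That last alternative and the unrounded counts were added after seeing the data. Total counts moved the median of all genes by -0.11 on the log2 scale and took Nrg1 under 2-fold, which left 3 members higher. At a 4-fold threshold 2 members were higher (Egfr and Hbegf) and 0 lower, and at a minimum of 200 counts 0 were lower, since Areg and Erbb3 have too few counts. Over all genes, 3047 were higher and 1919 lower with no minimum, 1266 higher at a minimum of 200 counts, 1078 higher and 299 lower at 4-fold, and 2606 lower at 1.5-fold. The members' median log2 ratio of 0.31 was 1.56 at a minimum of 100 counts over both libraries, which leaves out the 5 lowest members. Apart from the changes with total counts and with chromosome medians subtracted, these moves follow from the thresholds. The low counts of Btc, Tgfa, Epgn, Areg and Erbb3 limit what this depth can show. An alternative floor for counts of 0 gave no value, as no member was at 0.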

Other observations

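The second deposited table, in FPKM, lists 5 of the 10 members: Egfr (1.27 in WT and 16.4 with the Ahi1-/- label), Hbegf (3.22 and 20.4), Ereg (2.73 and 7.46), Areg (2.29 and 0.62) and Erbb3 (0.53 and 0.19). Nrg1 is not in it. Every gene listed there with a value above 0 in both columns is at least 2-fold apart in FPKM. For genes at 1 FPKM or more in both columns, the log2 ratio in FPKM was lower than that in TPM by a median difference of -0.16. The log2 ratio of Nrg1 in TPM was 1.01.

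Count and TPM can disagree where the mix of transcripts of a gene differs, because TPM divides by an estimated length. For Nrg2 the log2 ratio was -0.60 in counts and -2.51 in TPM, on 9 and 6 counts. Among the 10 members the length implied by count over TPM differed most for Nrg1 (log2 0.12 longer in the library labelled Ahi1-/-) and Egfr (log2 -0.10), relative to the median gene, and by at most 0.04 for the others.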
